A study of Rattus norvegicus with 2 samples.

Results

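The 6 genes described here belong to, or border on, the plasminogen system: Plau (ENSRNOG00000010516), Plat (ENSRNOG00000019018), Plaur (ENSRNOG00000037931), Serpine2 (ENSRNOG00000015461), Serpina1 (ENSRNOG00000032669) and Serpinf1 (ENSRNOG00000003172). They were chosen by symbol from the 25399 genes listed, each symbol matching 1 gene, and the choice was made with earlier results of these data known, so their levels are a description. Droplet single-cell RNA sequencing was done on the meniscus of the rat, a fibrocartilage of the knee joint, with 1 library of aged and 1 library of young tissue. Both were digested with protease and collagenase P and sorted for viable cells; no treatment or genotype is named, and strain, sex and the number of animals pooled are not stated in the labels used here. With 1 library per age nothing could be tested across animals: each difference is between these libraries, and every 95% interval below covers counting error only.

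Plasminogen circulates as an inactive precursor and is cut to plasmin, a broad protease that dissolves fibrin and attacks matrix, by the urokinase activator Plau and the tissue activator Plat. Plaur, the urokinase receptor, holds Plau at the cell surface. Serpins are mostly suicide inhibitors of serine proteases: Serpine2 (protease nexin-1) blocks thrombin, urokinase and plasmin, Serpina1 (alpha-1 antitrypsin) blocks neutrophil elastase, and Serpinf1 (pigment epithelium-derived factor) has the serpin fold without protease inhibition and is known as an anti-angiogenic matrix protein.

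After filtering, 6085 aged and 8773 young cells remained, with median depths of 3686 and 3846 UMIs (unique molecular identifiers, each 1 counted transcript), and 18 barcodes occurred in both libraries. Stromal cells, defined by 0 UMIs of the leukocyte gene Ptprc and at least 5 of Dcn (decorin) or Chad (chondroadherin), numbered 535 aged and 190 young, with median depths of 5835 and 15631.5 UMIs. Their make-up differed: at least 5 Chad UMIs were found in 37 aged and 116 young stromal cells, and of those, 0 aged and 103 young cells also held at least 5 UMIs of cartilage collagen Col2a1. The other 498 aged and 74 young stromal cells passed on Dcn alone. In the whole stromal gate all 8 fibroblast markers present in the files were found in at least 10% of cells in both libraries, whereas chondrocyte markers reached that share for 3 of 10 in aged and 10 of 10 in young cells, with Col9a1 and Matn3 at 0 UMIs in aged cells. Neutrophil markers summed to 1403 CPM (counts per 1000000 UMIs) in aged and 1135 CPM in young stromal cells, with Ltf and Cxcr2 at 0 in both; macrophage markers summed to 87.7 and 95.2 CPM, with Mrc1 and Cd163 at 0 in both, and B lineage markers to 208 and 113 CPM, with Pax5 at 0 in both.

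Endothelial cells, with at least 1 UMI of the junction gene Cdh5 and outside the stromal gate, numbered 39 aged and 16 young, and all 9 endothelial markers in the files were found in at least 10% of them in both libraries. The myeloid gate asked for 1 UMI of Csf1r, a macrophage growth factor receptor, or of S100a8, a neutrophil protein. It took in 3043 aged and 7465 young cells, most of the young library. Of these, 265 aged and 2530 young cells also lay in the B lineage gate defined below. The myeloid values therefore rest on narrower groups: Csf1r-positive cells (589 aged, 480 young), in which 9 of 10 macrophage markers in aged and 6 of 10 in young cells reached 10% of cells, and S100a8-high cells without Csf1r and with at least 50 S100a8 UMIs (771 aged, 1107 young), in which 8 and 7 of 9 neutrophil markers did. B lineage cells had at least 1 UMI each of the B cell genes Cd79a and Cd79b. They were also required to lack UMIs of Dcn, Chad, Cdh5 and Csf1r and to hold under 50 S100a8 UMIs. They numbered 628 aged and 2961 young, with median depths of 4928.5 and 3959 UMIs. UMIs of these genes in them were read as background. Because cells with stromal, endothelial or Csf1r UMIs were left out in advance, this background can be too low.

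The genes divided by where their UMIs lay. Of all UMIs of each gene in the kept cells, the stromal gate held 84.2% for Plau, 75.3% for Plat, 73.0% for Serpine2, 81.8% for Serpina1 and 91.9% for Serpinf1 in the aged library, although it held 7.71% of all UMIs there. Plaur was the exception, with 3.61% of its aged and 1.04% of its young UMIs in stromal cells and most of the rest in Csf1r-positive and S100a8-high cells.

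**Figure D1:**
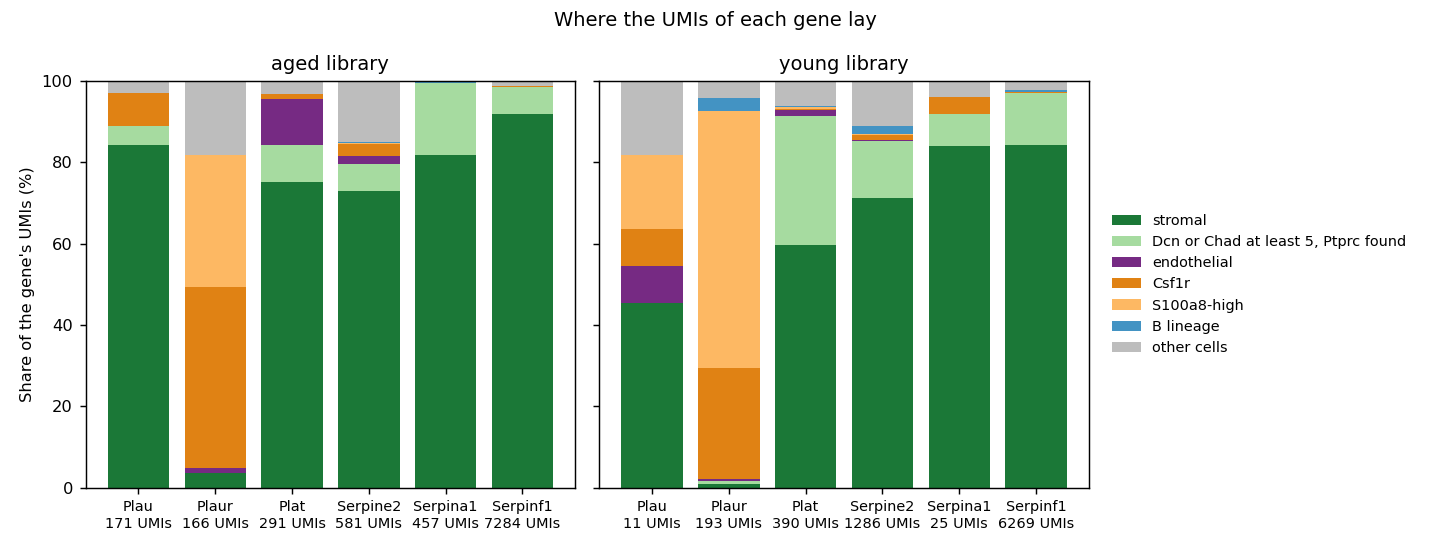
Share of each gene's UMIs (percent, vertical axis) by cell group in the aged and young libraries, with the total number of UMIs under each bar. The 5 genes other than Plaur lie mainly in stromal cells, apart from Plau in the young library, where it had 11 UMIs in all; Plaur lies mainly in Csf1r-positive and S100a8-high cells.

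In the whole stromal gate, 2 of the 5 genes with at least 20 summed UMIs were at least 2-fold higher in the aged library (Plau and Serpina1), against 10.5% of all 9325 genes measured that way, and 1 was at least 2-fold lower (Serpine2), against 8.38% of all genes. The choice of the genes used this contrast, so nothing is read from these counts. Plat and Serpinf1 lay within 2-fold, and Plaur had too few UMIs to count. Within Chad cells 2 were higher, Plau and Serpina1, against a background of 9.95%, and 0 were lower, against 18.7%. Within Dcn cells the same 2 genes were higher, against 9.33%, and 0 were lower, against 6.61%. Between Chad cells with under 5 Col2a1 UMIs, Plau and Serpina1 were again the 2 higher, against 15.5%, and Plat was the 1 lower, against 13.1%. In the myeloid gate as first defined, 2 were higher, Plau and Serpina1, against 7.1%, and 2 lower, Plat and Serpine2, against 23.5%; without cells that also held at least 5 Dcn or Chad UMIs, 2 aged and 2 young Serpina1 UMIs remained there, so that no Serpina1 fold is given.

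**Figure D2:**
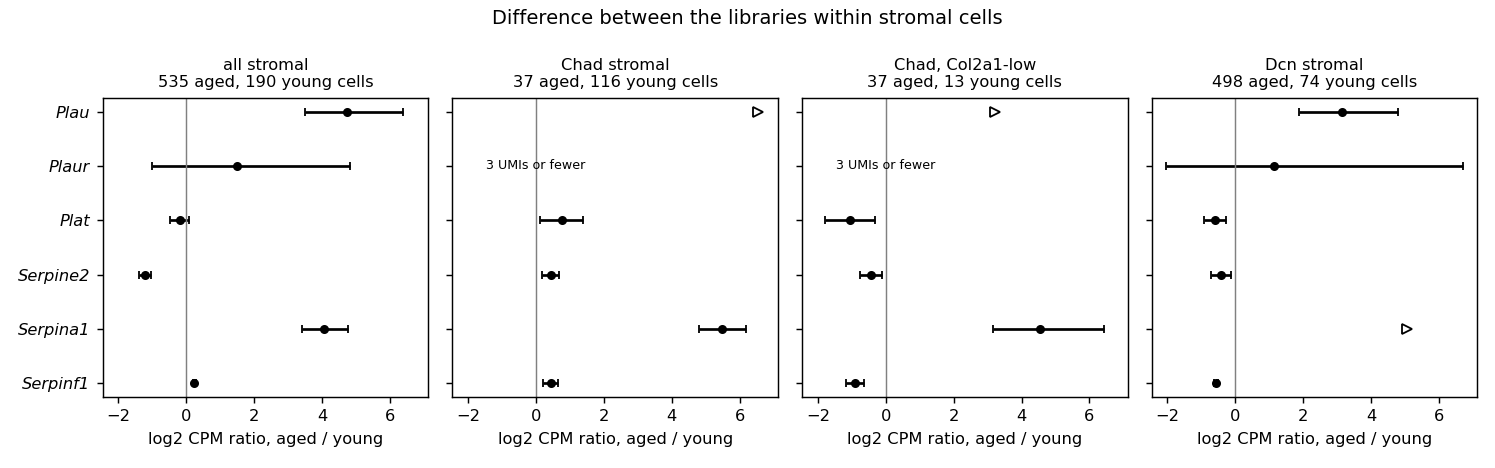
Log2 ratio of CPM, aged over young (horizontal axis), for each gene in all stromal cells, Chad cells, Chad cells with under 5 Col2a1 UMIs, and Dcn cells; points carry exact 95% counting intervals and open triangles mark lower bounds against 0 young UMIs. Plau and Serpina1 lie to the right in every panel, while Serpine2 lies at -1.22 in all stromal cells, at 0.44 in Chad cells and at -0.41 in Dcn cells, where it is 0.53 without the top cell of each library.

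The promoters of Plau and Serpina1, the genes higher in the aged stroma, are shown with that of Plaur, whose UMIs lay in other cells. Each is the 250 bases before the annotated start, from RefSeq (assembly GRCr8; the build behind the deposited counts is not given in the sources used here), read 5′ to 3′ on the gene's strand. Of the 6 genes, 5 matched a promoter entry by symbol, and Plat did not. Capitals mark matches, on either strand, to the letters TGANTCA (the AP-1 site) or GGGCGG (the GC box); no marked match overlaps another.
Plau, chr15:3511988-3512237, minus strand: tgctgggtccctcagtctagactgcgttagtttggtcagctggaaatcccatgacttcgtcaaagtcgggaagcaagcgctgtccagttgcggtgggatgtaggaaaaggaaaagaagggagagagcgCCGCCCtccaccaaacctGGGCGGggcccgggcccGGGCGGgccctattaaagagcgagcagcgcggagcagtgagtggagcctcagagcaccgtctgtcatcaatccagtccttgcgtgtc
Serpina1, chr6:128653126-128653375, minus strand: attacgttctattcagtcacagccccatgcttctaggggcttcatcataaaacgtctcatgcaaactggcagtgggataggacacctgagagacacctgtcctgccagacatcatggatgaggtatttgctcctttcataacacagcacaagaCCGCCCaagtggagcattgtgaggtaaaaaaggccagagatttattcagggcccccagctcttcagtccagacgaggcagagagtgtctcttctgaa
Plaur, chr1:89181113-89181362, plus strand: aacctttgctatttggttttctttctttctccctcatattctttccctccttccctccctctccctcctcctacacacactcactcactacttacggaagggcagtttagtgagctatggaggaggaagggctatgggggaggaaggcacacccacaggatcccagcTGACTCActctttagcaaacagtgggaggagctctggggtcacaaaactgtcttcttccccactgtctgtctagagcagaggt

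The Plau window held 3 GC boxes, beginning 122, 104 and 87 bases before the start, and the Serpina1 window held 1, beginning 97 bases before it. The Plaur window held 1 AP-1 match, beginning 83 bases before the start. Of the windows not shown, that of Serpine2 held 6 GC boxes and that of Serpinf1 held 0, each with 0 AP-1 matches. Among 33469 rat promoter windows of this length, 30.5% held a GC box and 6.34% an AP-1 match. Neither the cyclic AMP response element TGACGTCA (1.59% of windows) nor TATAAA (12.9%) matched in the 3 windows shown, which says only that these letters are not in them. A match is a description of the letters and not evidence of a bound site.

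Plau, the urokinase activator, had 144 UMIs in aged and 5 in young stromal cells, or 43.3 CPM (95% interval 36.5 to 51.0) and 1.62 CPM (0.526 to 3.78). This was 26.7-fold higher in the aged library (log2 4.74, 3.48 to 6.38). The transcript was thinly spread: 72 of 535 aged cells held a UMI, with a median of 1 UMI in those cells, and 5 cells held 5 or more. Of the young stromal cells, 3 of 190 held a UMI although they were sequenced more deeply. After each cell was thinned to 2000 UMIs, which left out 36 aged and 0 young stromal cells, the share with a UMI was 4.41% in the aged library (2.78 to 6.60) and 0 of 190 in the young, where a count of 0 allows a share of up to 1.58% by the floor of 3 counts and 1.92% by the exact interval. B lineage cells held 0 Plau UMIs in both libraries.

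Within the stroma Plau was highest in the aged Chad cells, at 158 CPM (115 to 213), but 44 UMIs in 5 of 37 cells made up that value and 1 cell held 20 of them. The 116 young Chad cells held 0 UMIs, with an upper limit of 2.11 CPM. Taking 3 counts in the young cells as the floor, the aged value was at least 92.5-fold higher. This bound leaves out the counting error of the aged value. Without the aged Chad cell with most Plau UMIs, 24 UMIs (91.8 CPM) remained. Against the 13 young Chad cells that, like the aged ones, had under 5 Col2a1 UMIs, the bound taken the same way from all 44 aged UMIs was 9.30-fold. In Dcn cells the level was 32.8 CPM (26.7 to 39.9) in 67 of 498 aged cells and 3.74 CPM (1.22 to 8.74) in 3 of 74 young cells, a log2 ratio of 3.13 (1.86 to 4.78), or 4.35 without the cell with most Plau UMIs in each library. Without the 1 cell per library with most Plau UMIs the stromal log2 ratio was 5.84, from 124 aged and 2 young UMIs, and in the stromal cells without leukocyte UMIs it was 6.41.

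The aged Dcn cells with Plau were not average for their gate. Split by the monocyte chemokine Ccl2 at 5 UMIs, Plau stood at 73.8 CPM in 95 Ccl2-high and 19.8 CPM in 403 Ccl2-low aged cells, a log2 difference of 1.89 (1.30 to 2.49). Split in the same way by the lubricin gene Prg4, Plau stood at 49.7 CPM in Prg4-high and 21.1 CPM in Prg4-low aged cells. That log2 difference was 1.24 (0.63 to 1.86). Genes compared between cells with and without a Plau UMI were picked after values were seen. In the 67 aged Dcn cells with Plau, Ccl2 was at 6613 CPM against 1035 CPM in the other 431, the neutrophil chemokine Cxcl1 at 13327 against 4022 CPM, and the stress factor Atf3 at 2602 against 1101 CPM. In the 5 aged Chad cells with Plau, Cxcl1 was at 19950 CPM against 1958 CPM in the other 32, and the matrix protease Mmp3 at 3901 against 100.4 CPM, whereas in the Dcn cells with Plau Mmp3 was at 622 against 901 CPM. These carriers were deeper cells, with median depths of 7280 against 5604 UMIs in the Dcn and 12585 against 5526 UMIs in the Chad gate, and the part of depth in finding Plau was not tested.

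Outside the stroma Plau was near its limit of detection. Aged endothelial cells held 0 UMIs and young ones 1, so no fold is given. Csf1r-positive cells held 16 aged and 1 young UMI (1.99 and 0.155 CPM, log2 3.68, 1.00 to 9.07), of which 14 and 1 were in cells without 5 Dcn or Chad UMIs. S100a8-high cells held 3 and 2 UMIs. In the aged library the order was Chad cells, Dcn cells, Csf1r-positive cells and S100a8-high cells, and the intervals of the first 3 did not overlap.

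**Figure D3:**
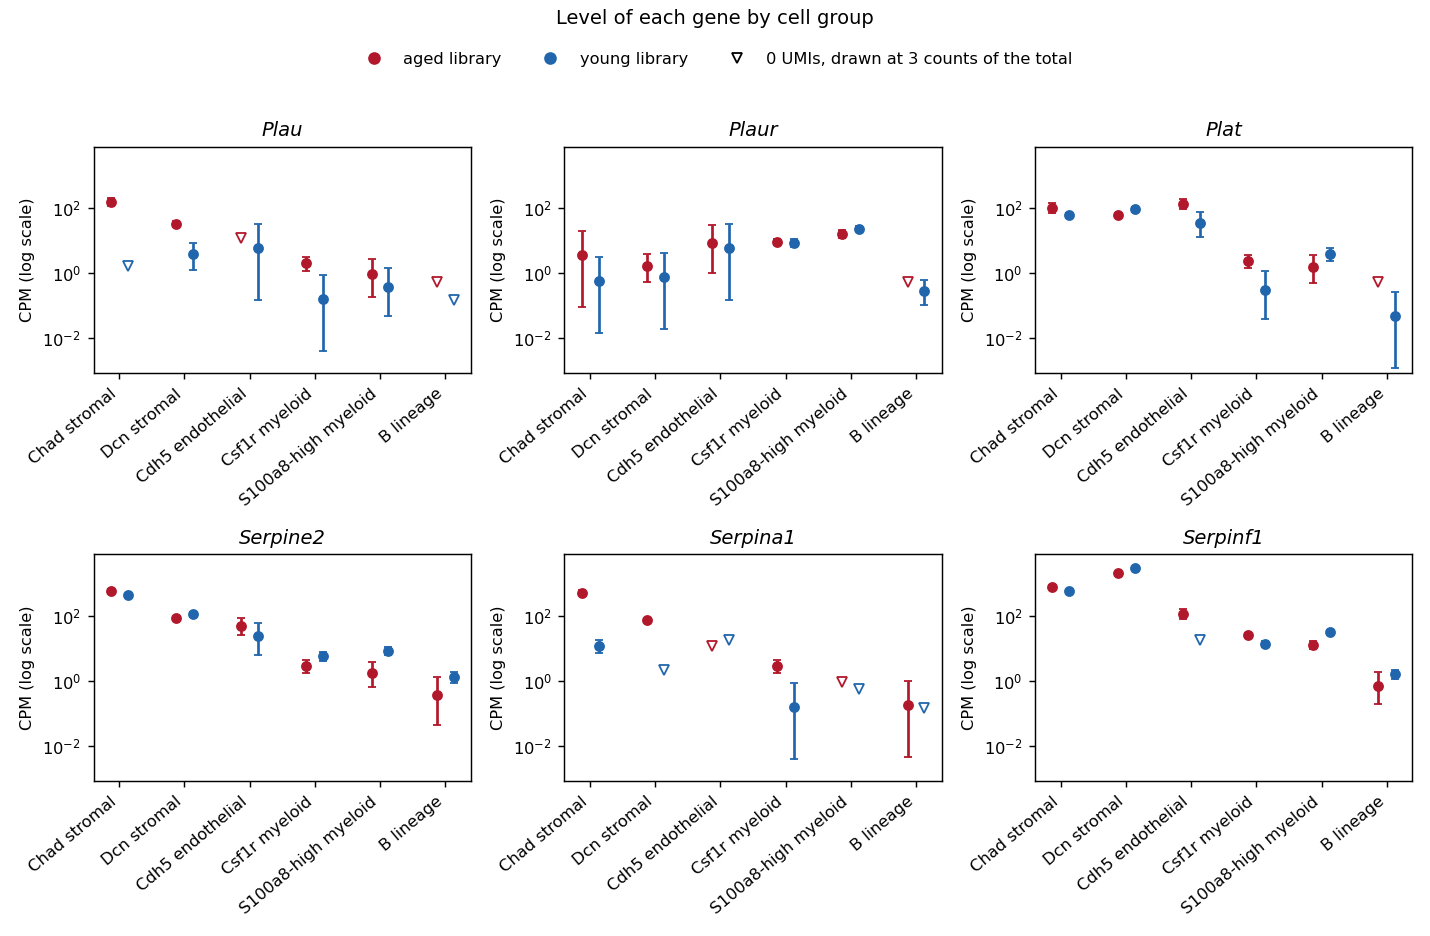
Level of each gene in CPM (vertical log axis) in 6 cell groups of the aged and young libraries; points carry exact Poisson 95% intervals, and an open triangle marks a group with 0 UMIs, drawn at 3 counts of the total. Plau and Serpina1 differ most between the libraries in the stromal groups, Plaur is highest in S100a8-high cells, and Plat stands above 35 CPM in stromal and endothelial cells and under 4 CPM in Csf1r-positive and S100a8-high cells.

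Plat, the tissue activator, gave a different picture from Plau, with levels that overlapped between the libraries in the stroma: 219 UMIs and 65.8 CPM (57.4 to 75.1) in aged and 233 UMIs and 75.5 CPM (66.1 to 85.8) in young cells, log2 -0.20 (-0.47 to 0.07). Its thinned share of cells was 12.6% (9.84 to 15.9) in aged and 12.1% (7.83 to 17.6) in young stromal cells. In B lineage cells 0 aged and 1 young UMI were found. The direction differed between stromal groups: among Chad cells Plat stood at 104 CPM in the aged library against 61.1 CPM in the young (log2 0.77, 0.13 to 1.38), and among Dcn cells at 62.3 against 94.4 CPM (log2 -0.60, -0.93 to -0.26). Single cells weighed on the young values, since 1 Chad cell held 32 of 107 UMIs and 1 Dcn cell 24 of 126. That same Chad cell gave most of the 38 UMIs in the 13 young Chad cells with under 5 Col2a1 UMIs, at 216 CPM. Without the cell with most UMIs in each library the stromal log2 ratio was -0.04. In the 481 aged and 122 young stromal cells without leukocyte UMIs it was 0.19 (-0.14 to 0.53), and without the condition on Ptprc it was -0.66 (-0.90 to -0.42).

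Endothelial cells are a known source of Plat in vessels, and the aged ones carried it at 137 CPM (94.0 to 192), from 33 UMIs in 11 of 39 cells. This was above the aged stromal level by 1.05 on the log2 scale (0.48 to 1.59). The 16 young endothelial cells held 6 UMIs in 3 cells, or 35.7 CPM (13.1 to 77.8), and the aged over young log2 ratio was 1.93 (0.66 to 3.48). Of 2964 genes measured there, 15.3% were at least 2-fold higher and 9.89% at least 2-fold lower, and of the genes described Plat was higher and 0 were lower. Serpinf1 passed the count only through 1 aged cell that also held at least 5 Dcn or Chad UMIs, with 0 UMIs in both libraries without it. The young ratio of endothelial to stromal Plat had an interval that included no difference, log2 -1.08 (-2.54 to 0.07). In aged cells 3 endothelial cells held 5 UMIs or more. Without the cell with most UMIs in each library 25 aged and 2 young UMIs remained and the log2 ratio was 3.16, so the size of this difference rests on a few cells. With at least 2 Cdh5 UMIs and 0 Ptprc UMIs asked, the log2 ratio was 1.21. Markers of other cells differed in this gate. Macrophage markers summed to 604 CPM in the aged and 363 CPM in the young library, with 2 and 5 of 10 found in at least 10% of cells and Cd163 at 0 in both. Fibroblast markers summed to 646 and 29.8 CPM, with 0 and 1 of 8 found in at least 10% of cells and Lum and Pdgfra at 0 in both. All 33 aged Plat UMIs lay in the 38 aged cells of this gate that held under 5 UMIs of both Dcn and Chad. The part of other cell types in the Plat values was not tested.

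Plaur, the urokinase receptor, was a myeloid transcript in these libraries. S100a8-high cells, the most neutrophil-rich group, had 54 aged and 122 young UMIs, or 16.4 CPM (12.3 to 21.4) and 23.4 CPM (19.4 to 28.0). The aged level was the lower one, with a log2 ratio of -0.51 and an upper bound of -0.04. Csf1r-positive cells had 74 aged and 54 young UMIs, or 9.22 CPM (7.24 to 11.6) and 8.39 CPM (6.30 to 10.9), with an interval of the difference from -0.39 to 0.67. S100a8-high cells exceeded Csf1r-positive cells in both libraries, by 0.83 (0.30 to 1.36) in aged and 1.48 (1.01 to 1.97) in young on the log2 scale. Without thinning, 6.74% of the aged and 10.0% of the young S100a8-high cells held a UMI, at median depths of 3167 and 3649 UMIs. After thinning, which left out 100 and 156 cells, the shares were 4.47% (3.04 to 6.32) and 6.52% (5.03 to 8.28), and 0 thinned B lineage cells held one.

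In the stroma Plaur had 6 UMIs in aged and 2 in young cells, or 1.80 CPM (0.662 to 3.93) and 0.648 CPM (0.0785 to 2.34), and the interval of their log2 ratio ran from -1.01 to 4.82. Endothelial cells held 2 and 1 UMIs. Receptor and ligand were rarely found in the same cell: 1 of 535 aged stromal cells held a UMI of both Plau and Plaur. At these depths, sharing by single cells could hardly be seen, since 72 aged stromal cells held Plau and 6 held Plaur. Over the whole myeloid gate as first defined, Plaur stood at 5.40 CPM in the aged against 3.51 CPM in the young library (log2 0.62, 0.30 to 0.94), but with at least 2 Csf1r or 50 S100a8 UMIs required the log2 ratio was -0.46 (-0.81 to -0.11). Cells with 1 to 49 S100a8 UMIs, without Csf1r and outside the B lineage gate, held 22 aged and 8 young UMIs (1.68 and 0.346 CPM), a log2 ratio of 2.27 (1.05 to 3.65), against the -0.51 of S100a8-high cells; this difference was not tested.

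Serpine2, the thrombin and urokinase inhibitor, marked the Chad cells. In aged cells it stood at 594 CPM (507 to 692) in Chad and 84.9 CPM (74.9 to 95.9) in Dcn cells, a log2 difference of 2.81 (2.52 to 3.09). In the young library it stood at 437 CPM (407 to 470) and 113 CPM (95.8 to 133), a log2 difference of 1.95 (1.70 to 2.21). Most Chad cells carried it, 33 of 37 aged and 96 of 116 young, against 85 of 498 and 19 of 74 Dcn cells.

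Over all stromal cells Serpine2 was lower in the aged library, with 424 UMIs and 127 CPM (116 to 140) against 917 UMIs and 297 CPM (278 to 317), a log2 ratio of -1.22 (-1.39 to -1.05). Within the stroma the ratio took both signs. In Chad cells the aged level was the higher one, by 0.44 (0.19 to 0.69), and in Dcn cells the log2 ratio was -0.41 (-0.71 to -0.11). That second sign rested on 1 young cell, which held 77 of the 151 young UMIs: without the cell with most Serpine2 UMIs in each library the Dcn log2 ratio was 0.53 (0.15 to 0.92). The same count of 77 UMIs in 1 young cell stands behind the lower aged values of the Prg4-high (-2.23), Ccl2-high (-1.47), Sfrp2-high (-2.15) and Pi16 (-2.85) Dcn cells. In Prg4-low Dcn cells, which lack it, the log2 ratio was 0.75 (0.28 to 1.24), and in Ccl2-low cells 0.35 (-0.07 to 0.77). Against the 13 young Chad cells with under 5 Col2a1 UMIs, at 801 CPM (674 to 944), the aged Chad cells were lower, at -0.43 (-0.76 to -0.10). Of the 141 UMIs in those 13 young cells, 1 cell held 50 and 5 cells held 80.1%, so the sign rests on few cells. Chad cells were 37 of 535 aged and 116 of 190 young stromal cells, and the part of this make-up in the pooled ratio was not tested. Endothelial cells stood at 49.7 CPM (25.7 to 86.8) in the aged and 23.8 CPM (6.49 to 61.0) in the young library, from 12 and 4 UMIs. B lineage cells held 2 aged and 27 young UMIs, 0.359 and 1.28 CPM.

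**Figure D4:**
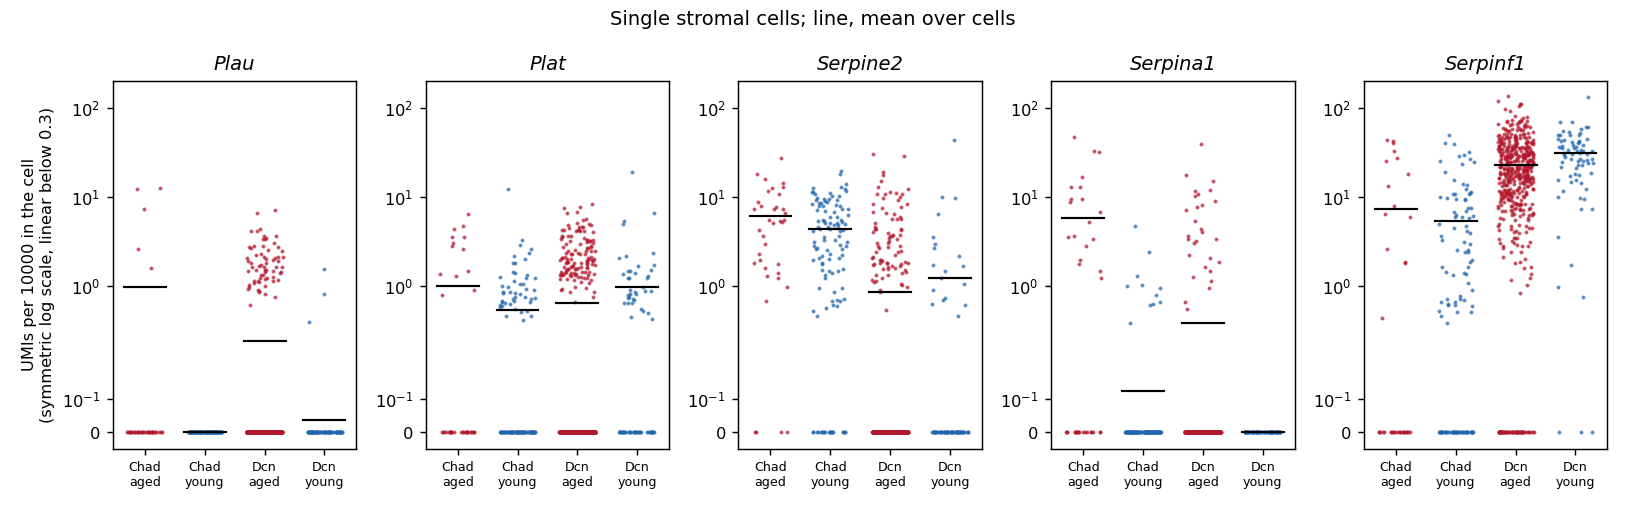
UMIs per 10000 in single stromal cells (vertical axis, symmetric log scale, linear below 0.3) for 5 genes in Chad and Dcn cells of each library; each dot is 1 cell and the line is the mean over cells. Serpine2 is found in most Chad cells of both libraries and Serpinf1 in most Dcn cells; Serpina1 is found in 19 of 37 aged Chad and 29 of 498 aged Dcn cells, and Plau in 5 and 67 of them.

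Serpina1, the elastase inhibitor, had 374 UMIs in aged and 21 in young stromal cells, 112 CPM (101 to 124) and 6.80 CPM (4.21 to 10.4). This was 16.5-fold higher in the aged library (log2 4.05, 3.41 to 4.76). Its UMIs were concentrated: 48 aged cells held it, 22 of them with 5 UMIs or more, and 1 cell held 48 UMIs. The stromal log2 ratio was 5.20 in the cells without leukocyte UMIs and 3.32 as a mean of per-cell CPM. The thinned share was 7.01% (4.93 to 9.62) in aged and 1.05% (0.128 to 3.75) in young stromal cells. B lineage cells held 1 aged and 0 young UMIs, and endothelial and S100a8-high cells held 0 in both libraries. Csf1r-positive cells held 23 aged UMIs in 2 cells, both with at least 5 Dcn or Chad UMIs, and 1 young UMI.

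Among aged Chad cells, 19 of 37 held Serpina1, at 529 CPM (447 to 622), against 21 UMIs in 11 of 116 young Chad cells, with an interval of 7.42 to 18.3 CPM, a log2 ratio of 5.46 (4.80 to 6.20). Against the 13 young Chad cells with under 5 Col2a1 UMIs, which held 4 UMIs (22.7 CPM, 6.19 to 58.2), the log2 ratio was 4.54 (3.16 to 6.44). Among Dcn cells, 29 of 498 aged cells held 227 UMIs, 74.4 CPM (65.1 to 84.8), and 74 young cells held 0. With a floor of 3 young counts the aged value was at least 33.1-fold higher, a bound that leaves out the counting error of the aged value.

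Serpina1 in the aged Dcn gate followed Prg4, the gene of the lubricant lubricin that marks the lining and surface of joint tissue. The split at 5 Prg4 UMIs for low cells was made after values were seen. The 154 Prg4-high cells held 225 of the 227 UMIs (180 CPM) and the 344 Prg4-low cells held 2 (1.11 CPM), a log2 difference of 7.35 (5.48 to 10.40). Serpina1 also stood at 111 CPM in Ccl2-high and 63.0 CPM in Ccl2-low aged Dcn cells, a log2 difference of 0.81 (0.40 to 1.21). In the Chad gate 146 of 147 aged UMIs were in the 28 Prg4-high cells, which leaves 1 in the 9 Prg4-low cells. The young Dcn cells held 0 UMIs on both sides of the split, so no order could be seen there. Young Chad cells held 11 UMIs (7.50 CPM) in 97 Prg4-high and 10 UMIs (35.0 CPM) in 19 Prg4-low cells, and 1 Prg4-low cell held 7 of those 10. Not every aged Prg4-high cell carried Serpina1, since 29 Dcn cells with a UMI stand beside 154 Prg4-high cells.

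The aged Dcn cells with Serpina1 largely lacked Serpinf1. A Serpinf1 UMI was found in 10 of 29 cells with Serpina1 (34.5%) and in 92.5% of the other 469, although the 29 were the deeper cells, with a median of 10505 against 5685 UMIs. The Serpinf1 level was 167 CPM in cells with Serpina1 and 2368 CPM in the others, a log2 difference of -3.83 (-4.23 to -3.45). Type I collagen Col1a1 was lower there too, at 541 against 2832 CPM, and Prg4 was at 33637 against 1198 CPM. As in the Dcn cells with Plau, chemokines and Atf3 were higher there: Cxcl1 was at 25256 against 3180 CPM, Ccl2 at 4189 against 1739 CPM and Atf3 at 2451 against 1227 CPM. The aged Chad cells differed: with Serpina1, Cxcl1 was at 2738 against 9023 CPM and Atf3 at 1227 against 1962 CPM without it. Ccl2 was higher in the Chad cells with Serpina1, at 1095 against 696 CPM, and so was Col1a1, at 423 against 232 CPM. In aged Chad cells Serpinf1 was found in 7 of 19 cells with and 44.4% of cells without Serpina1, and in young Chad cells in 4 of 11 and 64.8%. Serpina1 was found in 7 of the 72 aged stromal cells with Plau (9.72%) and in 8.86% of the others. Among aged Dcn cells the shares were 10.4% with and 5.10% without Plau, and among aged Chad cells 0 of 5 with and 59.4% of the other 32.

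**Figure D5:**
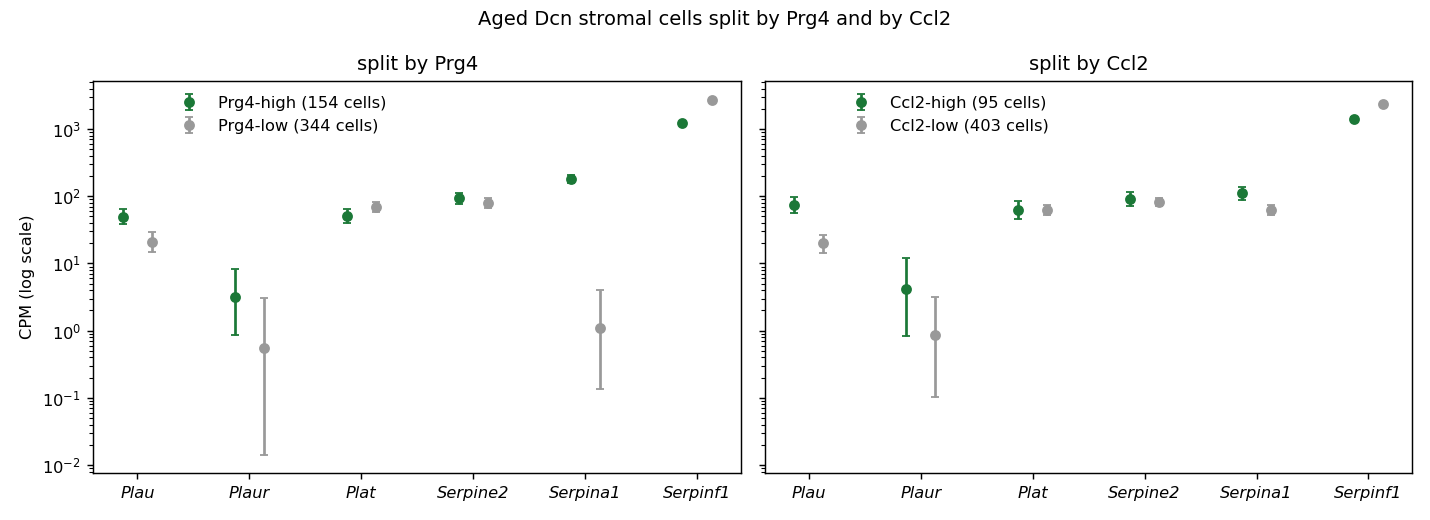
CPM (vertical log axis) of each gene in aged Dcn stromal cells, split at 5 UMIs of Prg4 (left) and of Ccl2 (right), with exact Poisson 95% intervals. Serpina1 stands at 180 CPM in Prg4-high and 1.11 CPM in Prg4-low cells, and Serpinf1 is lower in Prg4-high cells. Plau is higher in Ccl2-high and in Prg4-high cells, and Serpina1 is also higher in Ccl2-high cells.

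Serpinf1 was found in most stromal cells of both libraries, 459 of 535 aged and 143 of 190 young, at 2013 CPM (1965 to 2061) and 1712 CPM (1666 to 1758), a log2 ratio of 0.23 (0.18 to 0.29). The groups again differed in direction. Among Dcn cells it stood at 2121 CPM (2070 to 2174) in the aged against 3159 CPM (3064 to 3255) in the young library, log2 -0.57 (-0.63 to -0.52), and in Chad cells at 817 CPM (714 to 931) and 608 CPM (572 to 646), log2 0.43 (0.21 to 0.63). Against the 13 young Chad cells with under 5 Col2a1 UMIs, at 1539 CPM (1361 to 1733), the aged Chad cells were lower. That log2 ratio was -0.91 (-1.17 to -0.65), the same direction as in Dcn cells, and 1 of the 13 young cells held 129 of their 271 UMIs. Serpinf1 was lower in Chad than in Dcn cells in both libraries, by -1.38 (-1.57 to -1.19) in aged and -2.38 (-2.48 to -2.28) in young on the log2 scale. Among stromal cells with 4000 to 20000 UMIs, 423 aged and 142 young, the pooled log2 ratio was 0.69 (0.62 to 0.76).

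Within the Dcn cells Serpinf1 followed the fibroblast states. It was highest in cells with at least 5 UMIs of Sfrp2, a secreted WNT modulator, at 3952 CPM over 45 cells of the aged and 3706 CPM over 18 cells of the young library. Cells with Pi16 stood at 3029 and 3593 CPM and cells with at least 5 UMIs of the matrix protein Postn at 2934 and 3159 CPM. These groups overlap in their cells. Prg4-high cells were lower, at 1227 CPM against 2740 CPM in Prg4-low aged cells and 1881 against 3417 CPM in young cells, log2 differences of -1.16 (-1.24 to -1.08) and -0.86 (-1.01 to -0.72). In the endothelial gate, 29 aged UMIs came from 1 cell, which also held at least 5 UMIs of Dcn or Chad, and young cells held 0. Aged and young B lineage cells held 4 and 34 UMIs, 0.718 and 1.62 CPM.

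Cells with at least 5 UMIs of Dcn or Chad and a Ptprc UMI, 53 aged and 32 young, fall outside the stromal gate and carried these genes too. They held 123 of 390 young Plat UMIs, of which 82 were in 1 cell, 81 of 457 aged Serpina1 UMIs and 482 of 7284 aged Serpinf1 UMIs. No doublet caller was run, and whether these are mixed droplets was not tested. Most of them fall in the myeloid gates. Without them Csf1r-positive cells held 4 aged and 1 young Plat UMIs in place of 19 and 2, and S100a8-high cells held 5 and 9 Serpinf1 UMIs in place of 43 and 174. Of genes with at least 20 summed UMIs, Plat and Serpina1 were at least 2-fold higher in aged Csf1r-positive cells before that removal, against 5.26% of all genes, and Serpine2 was lower, against 8.95%; in S100a8-high cells Plat, Serpine2 and Serpinf1 were lower, against 14.1%, and 0 of these genes were higher, against 3.83%. None of these calls was kept after the removal: Csf1r-positive cells held 17 aged and 15 young Serpine2 UMIs (log2 -0.12, -1.21 to 0.98) and 0 and 1 Serpina1 UMIs, and S100a8-high cells held 1 and 2 Serpine2 and 0 and 2 Plat UMIs.

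Most stromal cells held UMIs of 1 or 2 of the genes. In the aged stroma 261 of 535 cells held UMIs of 1 of the 6 genes, 194 of 2, 46 of 3, 13 of 4 and 1 of 5. In the young stroma 51 of 190 held 1, 96 held 2, 36 held 3 and 2 held 4. Young cells were deeper, so these counts are not set against each other.

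The wider system was described with a list of 78 genes, of which 75 were in the files and 46 had at least 20 summed UMIs in the stroma. Genes named below beside the rule for the list were named after values were seen. Of the 46 genes, 18 were at least 2-fold higher in aged stromal cells, against the 10.5% of all genes given above, 4 were at least 2-fold lower, against 8.38%, and 24 lay between; the list was chosen with results of these data known. Its median log2 ratio was 0.68, against 0.07 over all genes measured. In Chad cells 11 of 28 measured genes were higher, against 9.95% of all genes, and 5 lower, against 18.7%, with a median of 0.45 against -0.19. In Dcn cells 11 of 43 were higher, against 9.33%, and 3 lower, against 6.61%, with a median of 0.31 against -0.01. The counts of lower genes lie near the shares over all genes in both. The counts by role below are read against the same shares. The roles are broad headings of the list, and a gene under a heading need not itself have that function.

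By role, 1 of the 6 measured inhibitors of activators and plasmin was at least 2-fold lower, which was Serpine2. Serpinb2, Serping1, Serpini1 and Thbd were among those at least 2-fold higher. Within Chad cells 2 of 3 were higher and 0 lower, and within Dcn cells 3 of 6 were higher and 0 lower. Serping1 stood at 410 aged against 74.8 young CPM among Chad cells. Among Dcn cells it lay within 2-fold, at 1028 against 723 CPM. Serpinb2 counts were low, at 18 over 7 aged stromal cells and 4 from 1 young cell. Thbd (thrombomodulin, a thrombin cofactor) was higher by 2.01 (1.67 to 2.36). Plasminogen itself, Plg, had 4 aged and 2 young UMIs in stromal cells and 0 in the endothelial, Csf1r-positive, S100a8-high and B lineage cells; it is made mainly in liver.

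Of 10 measured receptors and surface-binding genes, 2 were higher (Cd44 and Itgav), 0 lower and 8 within 2-fold; in Chad cells 3 of 9 were higher and 2 lower, and in Dcn cells 1 of 10 was higher and 1 lower. The hyaluronan receptor Cd44 was higher by 2.15 (1.83 to 2.49), and Eno1, a glycolytic enzyme that also binds plasminogen at the surface, had a log2 ratio of -0.80 (-0.94 to -0.66) but 0.20 (-0.03 to 0.44) among Dcn cells. Among 7 other serine protease inhibitors 2 were higher, Tfpi2 and Pi16, and 0 lower. Tfpi2, a Kunitz-type inhibitor of plasmin, had 416 aged UMIs in 33 cells and 5 young UMIs, log2 6.27 (5.04 to 7.90), and Pi16, whose UMIs mark a fibroblast state, was higher by 3.61 (3.25 to 3.99). Spint2, an inhibitor of membrane serine proteases, stood at 144 and 167 CPM over the whole stroma (log2 -0.22, -0.40 to -0.03), yet was higher in the aged library both among Chad cells (log2 0.46, 0.12 to 0.78) and among Dcn cells (log2 1.18, 0.81 to 1.56).

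Of 12 plasmin substrates and targets, 5 were higher (F13a1, Fn1, Mmp3, Mmp9 and Mmp13) and 1 lower, while in Chad cells 2 of 7 were higher and 2 lower, and in Dcn cells 2 of 11 were higher and 0 lower. The one lower over the whole stroma was the matricellular protein Thbs1, with 12 UMIs in 8 aged cells (3.61 CPM) and 72 UMIs in 45 young cells (23.3 CPM), log2 -2.69 (-3.71 to -1.80). All 72 of its young UMIs were in Chad cells, where the log2 ratio was -0.71 (-2.07 to 0.41). Tgfb1, a growth factor whose latent form plasmin can release, stood at 59.8 and 103 CPM, log2 -0.78 (-1.04 to -0.52), but the log2 ratio was 0.29 (-0.19 to 0.74) among Chad and -0.06 (-0.48 to 0.37) among Dcn cells. Of 6 other serpins 2 were higher (Serpina1 and Serpinb1a) and 1 lower, the collagen chaperone Serpinh1, at 620 and 1760 CPM, log2 -1.51 (-1.58 to -1.43). Of 5 measured genes under the heading of activators and plasminogen, which also holds clotting genes, 2 were higher (Plau and the clotting initiator F3). Under the same heading 1 was lower (St14, a membrane serine protease).

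Genes with the most similar pattern were ranked by Pearson's r of log2(CPM + 10) over 15 points, the cell groups of both libraries with at least 20 cells, among 7973 genes; the points share 2 libraries, so r is a description. The 6 genes themselves and the genes that define the cell groups were left out of the ranking. Nearest to Plau were then Ciart (r = 0.895), Bmp2 (0.895) and Stk38l (0.893), below the r of 0.975 between Plau and Serpina1. Nearest to Serpina1 were Gadd45b (0.926), Bmp2 (0.923) and Sdc4 (0.893). Plau stood at 158 CPM in aged Chad and 32.8 CPM in aged Dcn cells, and under the added 10 CPM at every other point. Serpina1 stood at 529 and 74.4 CPM in the same groups, at 10.8 CPM in young Col2a1-high Chad cells, and lower elsewhere. The r values of these genes therefore rest mainly on the aged Chad and Dcn cells. Plaur had Aldh3b1 (0.959), Agtrap (0.952) and Clint1 (0.949), and its r with the other 5 genes ran from -0.20 to -0.06. Plat had Map1b (0.993), Dlc1 (0.984) and Cav1 (0.981). Serpine2 had Inafm1 (0.989), Bnip3 (0.980) and Tmbim1 (0.979). Serpinf1 had the matrix genes Ccdc80 (0.985), Mmp2 (0.985) and Ogn (0.981).

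With the stromal gate set at 3 or at 10 UMIs of Dcn or Chad, the log2 ratio was 4.51 or 4.73 for Plau and 4.04 or 4.15 for Serpina1. Cells without Ptprc and with a Dcn or Chad maximum of 3 to 4 UMIs numbered 15 aged and 2 young, and those with 5 to 9 numbered 33 and 9. Just outside, the 15 aged cells held 4 Plau and 0 Serpina1 UMIs, and just inside, the 33 aged cells held 0 and 27. Serpinf1 stood at 196 CPM outside and 208 CPM inside in the aged library. Age cannot be told apart from library, depth and animal in this design.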

How the data were processed

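The authors deposited 1 matrix of raw, whole-number UMI counts per library; Cell Ranger 6.1.1 is named in the submitters' processing notes, and the genome build is not given in the sources used here. Libraries held 47228750 aged and 65051972 young UMIs in 8422 and 9914 barcodes. Kept cells had 500 or more genes and no more than 20% mitochondrial UMIs. No doublet caller was run. Cells were gated on raw UMIs; cells of the B lineage gate were kept out of the S100a8-low group, which departs from the planned gate. Counts were summed per gate and library and scaled to CPM, with exact Poisson intervals, conditional binomial intervals for ratios and Clopper-Pearson intervals for shares; shares were also taken after thinning to 2000 UMIs. A 0 was set at a floor of 3 counts for bounds, which leave out the counting error of the other value. The ratio computation was tested on simulated data.

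The genes, lists and gates were chosen with earlier results of these data known. Named genes were the 6 members, up to 5 list genes in each direction with the largest ratios (at least 20 counts and 20 CPM), and the 3 genes most similar in pattern to each member; a result that the rule would name is not reported here; genes in the comparisons of carriers, and Plg within groups, were chosen after values were seen. Alternatives changed filters, gates, scaling (edgeR 4.0.16 TMM, DESeq2 1.42.0 size factors), thinning and background subtraction. Tools were R 4.3.3, scipy 1.17.1, numpy 2.4.6, pandas 2.3.3 and Python 3.11.15.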

Additional observations from a re-analysis of the deposited data

Results flagged for a closer look

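The aged over young difference of Plat pointed in opposite directions in different cell groups. The log2 ratio was 1.93 in endothelial cells and 2.93 in Csf1r-positive cells, but -4.16 in cells with 1 to 49 S100a8 UMIs that lacked Csf1r and lay outside the B lineage gate. The difference between these groups was not tested, since there is 1 library per age. Single cells weighed on these values: 1 young S100a8-low cell held 82 of 126 UMIs, and 1 aged Csf1r-positive cell held 10 of 19. Without cells holding at least 5 UMIs of Dcn or Chad, the log2 ratio was 1.70 in Csf1r-positive cells, from 4 aged and 1 young UMIs, with an interval from -1.64 to 7.32. In the S100a8-low cells it was then -3.78, from 1 aged and 24 young UMIs, with an interval from -9.14 to -1.16.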

How the results depend on the processing

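Of 72 alternative values in stromal cells 71 had the sign of the reported one. The 72 include the 2 scalings, which shift every gene's ratio by the same -0.07 (TMM) or -0.04 (DESeq2 size factors). These shifts are smaller in size than any reported stromal ratio, so the scalings could not change a sign and show nothing about it. In endothelial cells the sign held for 3 of 4 alternatives and in myeloid cells for 15 of 17. Without stromal cells holding leukocyte UMIs the log2 ratios were 6.41 for Plau, 0.19 for Plat (the change of sign), 5.20 for Serpina1 and 0.30 for Serpinf1. With the mean of per-cell CPM they were 3.32 for Serpina1 and 0.52 for Serpinf1, and with TMM scaling 0.16 for Serpinf1. With alternatives chosen after seeing the data, they were -0.66 for Plat and 0.12 for Serpinf1 without the Ptprc condition, and -1.55 for Serpine2 and 0.69 for Serpinf1 at 4000 to 20000 UMIs. Without the top cell of each library, also chosen after seeing the data, the sign held for 3 of 4 values in Dcn cells and 4 of 4 in Chad cells, with Serpine2 in Dcn cells at 0.53 in place of -0.41. A stricter endothelial gate gave -0.67 for Serpine2 (5 and 4 UMIs) in place of 1.06. A stricter myeloid gate gave -0.46 for Plaur and 0.19 for Plat, in place of 0.62 and -1.45. With more than 3 counts asked of 1 library, 7 list genes were lower in place of 4. The cause of these changes was not tested.

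Unthinned, the shares of aged and young stromal cells were 26.4% and 44.7% for Plat, 22.1% and 60.5% for Serpine2, and 85.8% and 75.3% for Serpinf1; the aged share was 13.5% for Plau and the young share 5.79% for Serpina1. Thinned to 1000 UMIs, they were 0.193% and 0% for Plaur, 4.43% and 6.32% for Plat and 69.6% and 47.9% for Serpinf1, with 23.7% for Serpine2 in young and 3.66% for Serpina1 in aged cells. No paired analysis was possible because each age has 1 library. In endothelial cells no ratio could be given for Plau, Plaur, Serpina1 and Serpinf1, with 3 UMIs or fewer in a library. Young stromal cells held 5 Plau and 2 Plaur UMIs, which limits the precision of their ratios.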
